A study of Mus musculus with 10 samples.

Results

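Glutathione and antioxidant response genes were followed in mouse hepatocytes, the main cells of the liver parenchyma, across the lobule and the day. The group holds 10 genes, chosen by name: gclc, gclm, gss, gsr, gpx1, gpx4, txnrd1, srxn1, nqo1 and osgin1, spelled here in lower case as in the deposited tables. All 10 were among the 14812 gene entries counted, and all 10 were above the level needed for testing, as were 8908 entries in the tests of time.

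Glutathione is a small thiol made in 2 steps, and the liver makes and exports large amounts of it. The first step joins glutamate and cysteine and sets the pace, the second adds glycine, and the product gives up electrons to peroxides and is then recycled with NADPH. Many genes of this system carry antioxidant response elements, short sites bound by the transcription factor NRF2 together with a small MAF protein when oxidants or electrophiles release NRF2 from KEAP1. In the liver lobule, blood flows from the portal to the central vein, so that periportal cells see the most oxygen and pericentral cells carry out most of the oxidation of drugs.

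The cells came from male C57BL/6 mice 3 months of age, fed regular chow freely, anesthetized with ketamine and xylazine, and were freed by collagenase perfusion and a Percoll gradient. The 10 libraries held 18378 cells: 3 libraries at ZT0 (A, B and C), 2 at ZT6 (A and B), 3 at ZT12 (A, B and C) and 2 at ZT18 (A and B), where ZT counts hours from lights on by convention. No mutant, transgene or drug arm was among them. The measurement is the number of UMIs, each a tagged RNA molecule read at its 3′ end, scaled to a fixed library total and given as CPM. The labels do not say that libraries came from separate mice, so p-values measure the spread between libraries, which may be technical. The 2 ZT6 libraries were much alike (Pearson r = 0.985 of log2 levels), as were the 2 ZT18 libraries (0.986). Pairs within ZT0 or within ZT12 had r of 0.933 to 0.948. SDs at ZT6 and ZT18 may thus not compare with those at ZT0 and ZT12. The tests of time use 1 estimate of spread for all times.

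Library totals ran from 1454623 UMIs in ZT12A to 7144803 in ZT12B, and the median cell held 1588 to 2662 UMIs. The 8 hepatocyte markers summed to 34100 to 64710 CPM, while the lymphocyte list summed to at most 0.61 CPM, the neutrophil list to at most 7.84, the macrophage list to at most 11.2, the endothelial list to at most 15.0 and the stellate list to at most 17.7. The cholangiocyte list was higher, at 5.79 to 118 CPM with its highest value at ZT0, and the erythroid list ran from 72.2 to 360.5 CPM. Outside ZT18B most of the erythroid sum came from Alas2 alone, which was at 67.4 to 106.9 CPM over the libraries. The 4 clock genes Arntl, Nr1d1, Dbp and Per3 summed to 118 to 188 CPM in the ZT6 and ZT12 libraries and to 20.5 to 37.3 CPM in those of ZT0 and ZT18. Dbp reached 155 CPM, Nr1d1 39.6, Per3 39.2 and Arntl 30.2, so the sum does not show the course of each gene. ZT18B stood apart in its 4 haemoglobin genes, which summed to 293 CPM against at most 8.80 in the other libraries. Both ZT18 libraries, and no others, carried the number 4 in their 10x index name. The ZT18 time and that index number therefore cannot be told apart, and values without these libraries are given where a call among the 10 genes changes. No 2 cells of the series had identical counts. Shared cell barcodes could not be counted, because the tables number the cells.

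The genes lie on 5 chromosomes (GENCODE M21, GRCm38, the assembly also called mm10). The paired subunit genes of the first step are Gclc (chr9:77754535-77794485, plus strand) and Gclm (chr3:122245557-122270732, plus). The second step is encoded by Gss (chr2:155563181-155592810, minus), and recycling by Gsr (chr8:33652523-33698163, plus). The peroxidase genes are Gpx1 (chr9:108338903-108340343, plus) and Gpx4 (chr10:80047166-80056439, plus). The others are Txnrd1 (chr10:82833951-82897712, plus), Srxn1 (chr2:152105516-152111376, plus), Nqo1 (chr8:107388225-107403206, minus) and Osgin1 (chr8:119434124-119446256, plus). Exons of Gss overlap those of Acss2 on the other strand, exons of Gclm overlap a pseudogene, and Gpx4 has a processed pseudogene, so counts of these 3 genes are uncertain where reads were shared. How shared or antisense reads were counted is not given in the sources used here.

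RefSeq promoter windows (GRCm38.p6, 250 bases before to 50 after a start site) were found for 8 of the 10 genes, and none for Gclc or Gsr. The core of the antioxidant response element (TGACNNNGC, both strands) occurred in 3 of the 13 windows of these 8 genes. They were the windows of Gclm and Srxn1 and a window of Txnrd1. The core occurred in 12.4% of the 32851 windows searched. The E-box CACGTG, a site for clock factors, was in no window of the 8 genes and in 7.15% of the windows searched. The D-box TTATGTAA was likewise in none of them and in 0.938% of all. The windows with the core match are printed with the match in capitals, 5′ to 3′, and that of Osgin1, the gene that varied most with time, is printed beside them without any match. A match describes letters, not a bound site.
Gclm, chr3:122245307-122245606, plus strand: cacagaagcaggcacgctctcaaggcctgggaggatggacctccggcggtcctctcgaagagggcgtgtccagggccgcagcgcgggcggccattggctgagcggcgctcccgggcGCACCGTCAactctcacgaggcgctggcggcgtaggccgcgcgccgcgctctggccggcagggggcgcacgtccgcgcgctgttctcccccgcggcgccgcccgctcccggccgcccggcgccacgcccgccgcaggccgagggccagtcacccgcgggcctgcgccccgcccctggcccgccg
Txnrd1, chr10:82858956-82859255, plus strand, the middle of 3 windows: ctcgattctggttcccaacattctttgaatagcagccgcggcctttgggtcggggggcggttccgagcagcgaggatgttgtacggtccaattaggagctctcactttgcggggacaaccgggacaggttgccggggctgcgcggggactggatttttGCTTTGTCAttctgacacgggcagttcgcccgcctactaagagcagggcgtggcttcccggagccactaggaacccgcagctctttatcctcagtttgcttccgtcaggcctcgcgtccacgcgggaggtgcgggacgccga
Srxn1, chr2:152105274-152105573, plus strand: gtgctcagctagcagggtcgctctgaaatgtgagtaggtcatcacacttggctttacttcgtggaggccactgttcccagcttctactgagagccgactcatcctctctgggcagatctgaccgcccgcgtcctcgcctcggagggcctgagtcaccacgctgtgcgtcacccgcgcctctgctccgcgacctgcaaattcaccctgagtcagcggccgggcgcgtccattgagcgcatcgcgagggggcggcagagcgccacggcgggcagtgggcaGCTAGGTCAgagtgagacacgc
Osgin1, chr8:119436897-119437196, plus strand: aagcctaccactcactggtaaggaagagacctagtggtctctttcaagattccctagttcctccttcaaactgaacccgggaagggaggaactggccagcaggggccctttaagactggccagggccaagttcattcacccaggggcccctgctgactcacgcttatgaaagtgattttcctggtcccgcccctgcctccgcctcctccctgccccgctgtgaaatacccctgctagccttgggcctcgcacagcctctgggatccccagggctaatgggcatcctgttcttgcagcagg

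The first comparison asked whether the genes follow the time of day. Osgin1 (osgin1), an NRF2-responsive gene whose protein restrains growth, was highest at ZT0 and lowest at ZT12, and was the only one of the 10 with a 24-h rhythm. Its log2 amplitude, the distance from mean to peak, was 0.89, with the fitted peak at ZT 0.41 (quasi-likelihood test of edgeR, adjusted by the Benjamini-Hochberg method, adjusted p = 0.045). Across all genes tested 458 of 8908 were called, or 5.14%, so 1 of 10 is near the background. The median amplitude of the 10 genes was 0.25, and so was that of all genes.

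**Figure D1:**
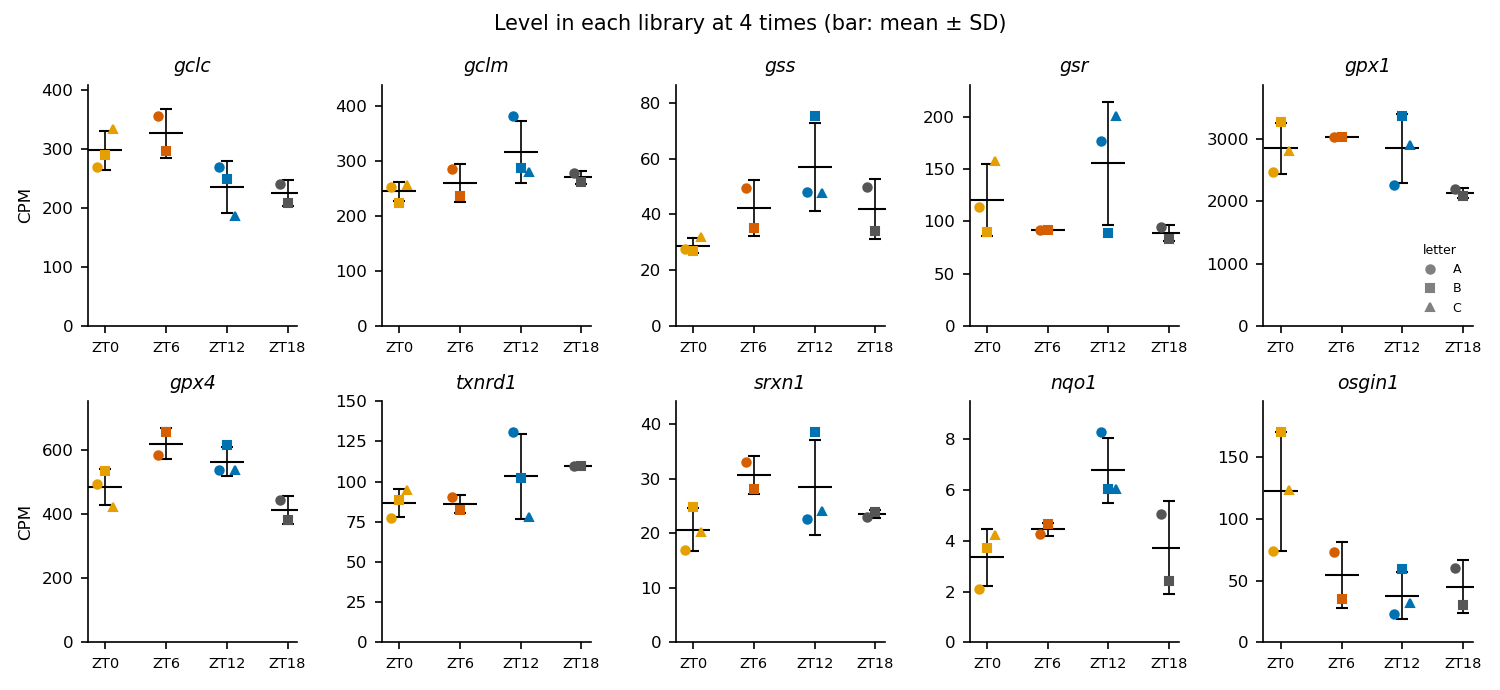
Level of each of the 10 genes in each library, in CPM (y axis, from 0), at the 4 times (x axis). Points are libraries, with shapes for the letters A, B and C, and bars give mean ± SD (n = 3 for ZT0 and for ZT12, n = 2 for ZT6 and for ZT18). The 3 ZT0 libraries of osgin1 sit between 73.7 and 170.0 CPM, above every library of the other times.

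The ZT0 libraries held osgin1 at 73.7, 170.0 and 123.1 CPM, and the ZT12 libraries at 22.7, 59.3 and 31.6 CPM. At ZT6 it was at 73.3 and 35.5 CPM, and at ZT18 at 60.4 and 30.2 CPM. The ZT0 libraries thus did not overlap with any other time, though ZT0A was only just above ZT6A, and the ranges of ZT6, ZT12 and ZT18 overlapped. How many of all genes have times without overlap was not counted, here or for the genes below. Group means were 122.3 ± 48.2 CPM (SD, n = 3) at ZT0, 54.4 ± 26.7 (n = 2) at ZT6, 37.9 ± 19.1 (n = 3) at ZT12 and 45.3 ± 21.3 (n = 2) at ZT18. From ZT0 to ZT12 osgin1 fell by 1.74 ± 0.39 on the log2 scale (SE, edgeR, adjusted p = 0.025), in a comparison that called 306 of 8908 genes, or 3.44%.

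A list of 9 dissociation and stress genes, immediate early genes such as Fos and Egr1 and the heat shock genes Hspa1a and Hspa1b, also stood at different levels by time. It summed to 218.5, 317.5 and 645.4 CPM at ZT0, 661.3 and 609.6 at ZT6, 205.6, 191.7 and 219.9 at ZT12 and 335.4 and 372.7 at ZT18. Its ZT12 sums were thus low as well, and the ZT0A sum lay within their range, while its ZT6 sums were high where osgin1 was not. Fosb was at 0 in 2 libraries and Hspa1a in 1. The part of this list in the fall of osgin1 was not tested.

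The letters of ZT0 and ZT12 libraries also share an index number (3 for A, 7 for B, 5 for C), and the fall was present within each. Between ZT0 and ZT12 the ratio was 0.31 for letter A, 0.35 for B and 0.26 for C. With the letter as a replicate block the log2 difference was -1.755 (edgeR, adjusted p = 0.016), and the rhythm kept its call (0.040). That block raised the calls of this contrast over all genes from 306 to 504. With the index number as a block and without both ZT18 libraries, chosen after seeing the data, it was -1.845 (edgeR, adjusted p = 0.0013). With the 4 time means compared at once, osgin1 alone of the 10 was called (adjusted p = 0.037 by edgeR), with 6.58% of all genes called. That call was lost without ZT0B, ZT0C, ZT6B, ZT12A, ZT12C or ZT18B (adjusted p of 0.052 to 0.12 by edgeR). The rhythm of osgin1 lost its call without ZT0B, ZT0C, ZT6A, ZT12A, ZT12C or ZT18A (adjusted p of 0.069 to 0.14 by edgeR), and the ZT12 contrast without ZT0B (0.084), ZT12A (0.11) or ZT12C (0.10). The rhythm also missed the threshold with library size alone (0.063), at a mean of at least 20 CPM (0.053) and without the 5% of cells with the most UMIs (0.059), by edgeR. Osgin1 was the most variable of the 10, with a coefficient of variation of 68.5% over libraries against a median of 22.4% in 1060 genes of like level.

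Gss (gss), glutathione synthetase, the enzyme of the second step, was lowest at ZT0 and highest at ZT12. It was at 27.8, 26.9 and 31.7 CPM at ZT0, 49.4 and 35.2 at ZT6, 48.1, 75.3 and 47.7 at ZT12 and 49.7 and 34.2 at ZT18. All ZT0 libraries were below all libraries of each other time. Times without overlap were also seen for other genes with no call for time, such as gpx4 and txnrd1. The ZT12 mean of 57.0 ± 15.8 CPM (SD, n = 3) stood against 28.8 ± 2.58 (n = 3) at ZT0. The log2 difference of 0.88 ± 0.24 (SE) did not pass edgeR's threshold (adjusted p = 0.061), and with the letter as a replicate block it did (0.88, adjusted p = 0.040). It was 0.54 without ZT12B (adjusted p = 0.24) and passed without ZT12C (1.03, adjusted p = 0.048). It also passed with library size alone (1.01, adjusted p = 0.032 by edgeR), a scaling that put the median of all genes at 0.13 for this contrast, with no filter on low counts (0.87, 0.025) and with DESeq2 (0.88, 0.038). The antisense neighbour Acss2 went the other way, with a log2 difference of -0.98 (edgeR, adjusted p = 0.061).

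The subunit genes of the first step did not pass for any time test. Gclc (gclc), the catalytic subunit, was at 269.7, 290.3 and 334.9 CPM at ZT0 and 356.3 and 297.1 at ZT6. It was at 270.2, 249.7 and 186.2 at ZT12 and 240.8 and 209.4 at ZT18. The later times were lower, with an amplitude of 0.33 on the log2 scale and the highest fitted level at ZT 2.97 (adjusted p = 0.21 by edgeR). Gclm (gclm), the modifier subunit that raises the catalytic subunit's efficiency, was at 253.3, 223.5 and 256.1 CPM at ZT0 and 284.8 and 235.3 at ZT6. It was at 381.5, 287.1 and 280.6 at ZT12 and 278.2 and 261.6 at ZT18. In CPM its 3 ZT12 values lay above its 3 ZT0 values. The TMM factor was 1.143 for ZT12C and 0.888 for ZT0A, so that ZT12C falls below ZT0A once scaled. On the TMM scale the log2 difference was 0.23 ± 0.20 (SE, edgeR, adjusted p = 0.64), and it was 0.05 without ZT12A.

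Gsr (gsr), glutathione reductase, which recycles oxidized glutathione with NADPH, differed between libraries of different index numbers. Libraries of index number 7 (ZT0B, ZT6A, ZT6B and ZT12B) held 89.5, 91.4, 91.6 and 88.9 CPM, and the ZT18 libraries 94.3 and 83.5. Those of index numbers 3 and 5 held 113.4 and 176.7 CPM (ZT0A, ZT12A) and 157.3 and 200.8 CPM (ZT0C, ZT12C). The 2 sets did not overlap. This split was drawn after seeing the values, and how many of all genes share it was not counted. The 8 pericentral landmark genes, used below to order the cells, split the same libraries by their sum. They summed to 10160 and 11810 CPM in ZT0A and ZT12A and to 15280 and 14680 in ZT0C and ZT12C. In the other libraries they summed to 6757 to 9035 CPM. What the index number stands for is not given, and neither its part nor that of the landmark sum in the level of gsr was tested. The amplitude over the day was 0.10 (edgeR, adjusted p = 0.90).

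The remaining 5 genes gave no call for time. Gpx1 (gpx1), the main cytosolic glutathione peroxidase, was at 2081 to 3374 CPM, with both ZT18 libraries lowest in CPM (2193 and 2081). ZT12A followed at 2271 CPM, and TMM scaling puts it below ZT18A. Gpx4 (gpx4), which removes lipid peroxides from membranes, was at 382 to 654 CPM, and both ZT18 libraries were below every ZT6 and ZT12 library. The ZT18 minus ZT6 differences were -0.43 ± 0.30 (SE) for gpx1 and -0.52 ± 0.26 for gpx4, neither past edgeR's threshold (adjusted p = 0.47 and 0.30).

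Txnrd1 (txnrd1), thioredoxin reductase, was at 77.3 to 130.6 CPM. Srxn1 (srxn1), sulfiredoxin, which repairs overoxidized peroxiredoxins, was at 16.9 to 38.5 CPM. Nqo1 (nqo1), a quinone reductase often used as a readout of NRF2, was thinly counted. It had 9 to 43 UMIs per library and 2.09 to 8.25 CPM, with 8.25, 6.02 and 6.02 at ZT12 above all other libraries (edgeR, ZT12 minus ZT0 0.83 ± 0.33 SE, adjusted p = 0.24). Between ZT18 and ZT6 none of the 10 genes was called by edgeR or by DESeq2, against 3.79% of all genes called by edgeR. None of the 10 had an unadjusted p under 0.05 by edgeR, while 1744 of 8908 genes did.

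The next comparison asked how the genes are placed along the lobule. Cells of each library were ordered by 8 periportal and 8 pericentral landmark genes, none among the 10, split into 3 equal parts, and both outer parts were compared with the library as a block. Held-out genes followed the order: Glul, the classic central-vein gene, had a log2 difference of -4.05 and Cdh1, a portal one, of 4.22 (periportal minus pericentral). Of the 10 genes, 5 were called, 2 higher in the periportal zone (gss and gpx1) and 3 higher in the pericentral zone (gsr, txnrd1 and nqo1). Over all genes 24.6% were called, 11.9% periportal and 12.7% pericentral. The share called was larger among genes of higher level. With a mean of at least 20 CPM required, edgeR called 1662 of 4341 genes, and 5 of the 9 tested from this group. With library-size scaling in place of TMM the median log2 difference of all genes was -0.11 against -0.01, so differences are given relative to TMM.

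**Figure D2:**
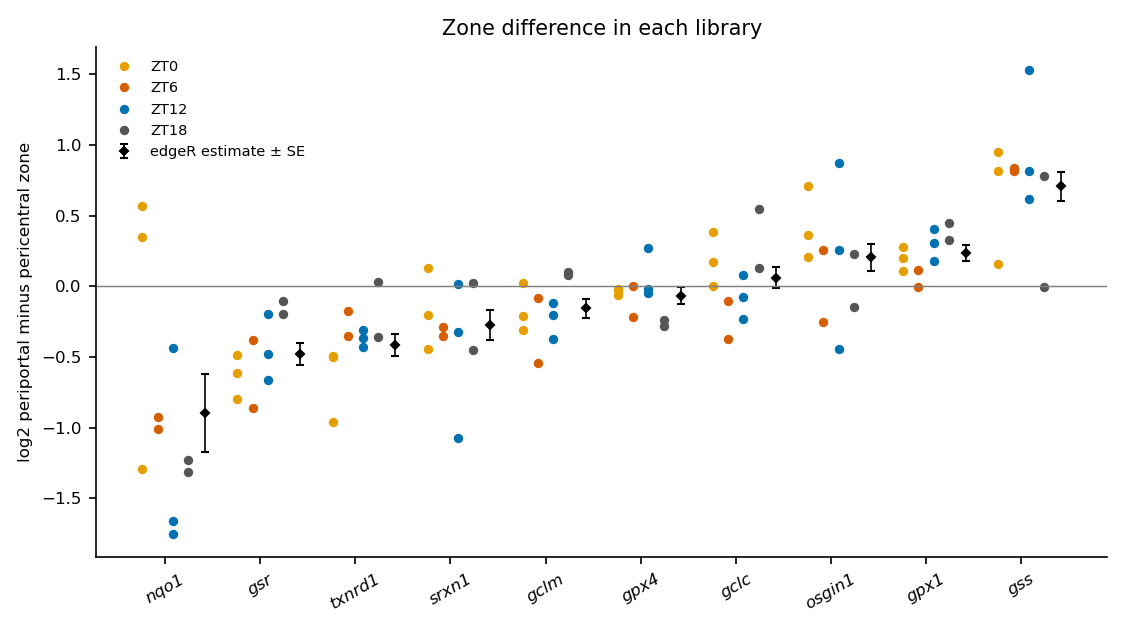
Difference between the periportal and the pericentral zone on the log2(CPM + 1) scale with TMM-scaled totals (y axis) for each of the 10 genes (x axis). Coloured points are the 10 libraries by time and black diamonds are edgeR estimates ± SE. The gsr points are below 0 in all 10 libraries, and the gss points above 0 in 9.

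Gss was higher in the periportal zone. Its pericentral level ran from 19.7 to 62.1 CPM with a median of 30.1, and its periportal level from 26.5 to 89.0 with a median of 52.7. The periportal zone was higher in 9 of 10 libraries, and ZT18B had a difference of -0.0021. The log2 difference was 0.71 ± 0.10 (SE, edgeR, adjusted p = 1.3e-06). Over 8 layers the mean rose from 33.8 ± 15.3 CPM (SD, n = 10) in layer 1, the most pericentral, to 59.3 ± 24.6 in layer 8. Acss2 was lower in the periportal zone by 0.21, short of the threshold (edgeR, adjusted p = 0.086).

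Markers of cholangiocytes, the bile duct cells that lie at the portal end, also summed to more there in 10 of 10 libraries, at 13.0 to 218 CPM in the periportal and 1.57 to 22.8 in the pericentral zone. Of the 6, Epcam, Krt7, Krt19 and Cldn7 were at 0 in 7 or 8 of the libraries and had 2 to 5 UMIs in all, while Sox9 and Spp1 carried the sum. Their part in the result for gss was not tested. Mitochondrial reads were likewise a larger share in the periportal zone in every library.

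Gpx1 was higher in the periportal zone by 0.24 ± 0.06 (SE, edgeR, adjusted p = 0.0022), a small step from a pericentral median of 2692 CPM to a periportal median of 2941. The difference was above 0 in 9 of 10 libraries. With library size alone it was 0.14 and missed the threshold (edgeR, adjusted p = 0.074).

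Gsr was higher in the pericentral zone in all 10 libraries, as a difference of 1 sign in all libraries was for 11.1% of all genes. Its pericentral level ran from 93.3 to 241.2 CPM with a median of 124.4, and the periportal level from 64.1 to 164.3 with a median of 87.5. The log2 difference was -0.48 ± 0.08 (SE, edgeR, adjusted p = 6.8e-06), and the mean over layers fell from 156.7 ± 63.8 CPM (SD, n = 10) in layer 1 to 91.5 ± 29.3 in layer 8. The direction was thus the same in libraries of each index number.

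Txnrd1 was higher in the pericentral zone in 9 of 10 libraries, with medians of 115.6 CPM pericentral and 76.9 periportal and ZT18B as the exception. The log2 difference was -0.41 ± 0.08 (SE, edgeR, adjusted p = 0.00011). Nqo1 was higher in the pericentral zone in 8 of 10 libraries, with ZT0A and ZT0B as exceptions, at medians of 6.36 and 2.67 CPM. Its log2 difference of -0.90 ± 0.27 (SE, adjusted p = 0.014 by edgeR) rested on 2 to 16 UMIs per zone and library. It was -0.52 (adjusted p = 0.32) in cells with at least 2000 UMIs and -0.78 (adjusted p = 0.063) without both ZT18 libraries. With the odd-numbered landmarks alone it was -0.69 (adjusted p = 0.063 by edgeR).

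The other 5 genes were not called for zone. The differences were 0.06 for gclc (adjusted p = 0.62 by edgeR), -0.15 for gclm (0.094), -0.07 for gpx4 (0.49), -0.27 for srxn1 (0.055) and 0.21 for osgin1 (0.13). With library size alone gclm, gpx4 and srxn1 passed too, all toward the central vein, and gclc changed sign to -0.04. Gclm also passed without both ZT18 libraries (-0.21, adjusted p = 0.031 by edgeR). Srxn1, close to the threshold, also passed with the odd-numbered landmarks (-0.36, adjusted p = 0.0096 by edgeR), in cells with at least 2000 UMIs (-0.40, 0.026), at a mean of at least 20 CPM (-0.26, 0.046), and without ZT0A (-0.32, 0.033) or ZT18B (-0.30, 0.047). Osgin1 passed without ZT12B (0.31, adjusted p = 0.016 by edgeR), on the periportal side.

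**Figure D3:**
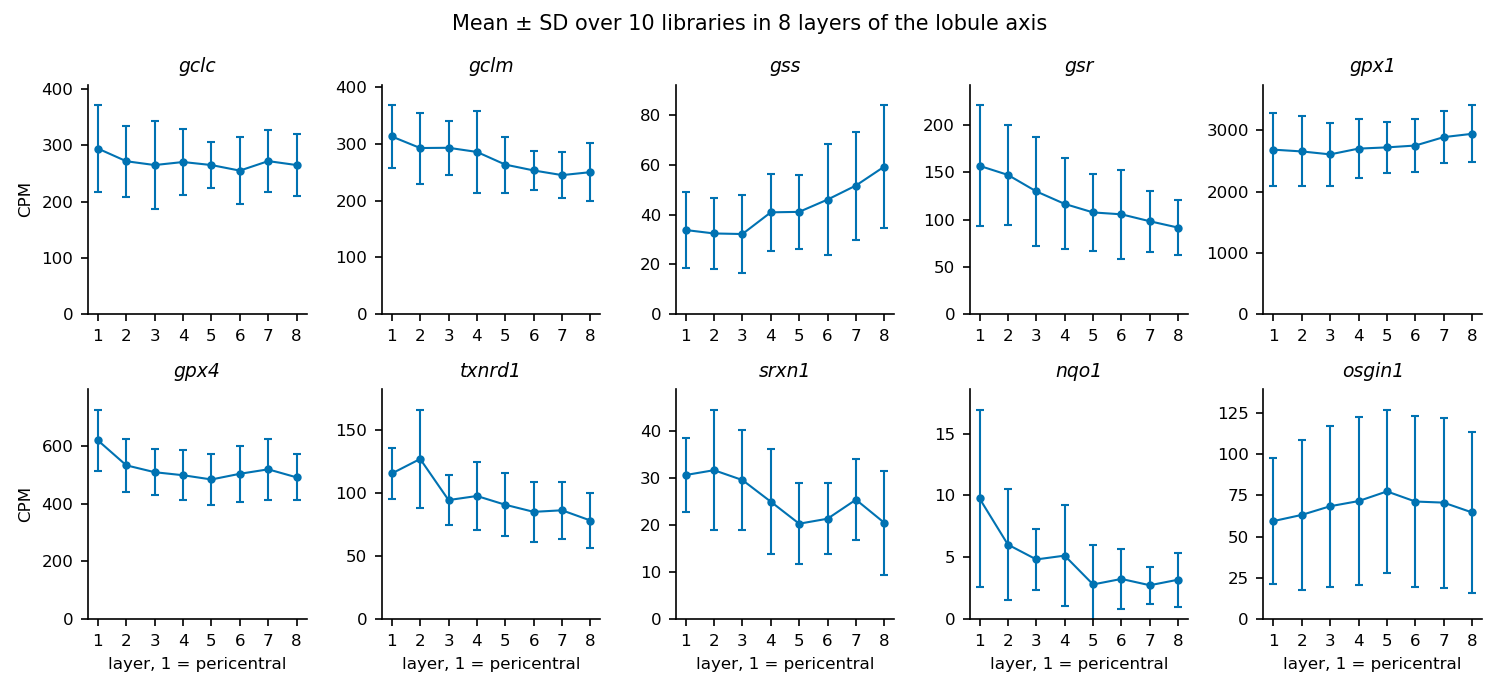
Mean level ± SD over the 10 libraries (y axis, CPM from 0) in 8 equal layers of the ordered cells (x axis, layer 1 pericentral) for each of the 10 genes. The mean of gss is highest in layer 8 and that of gsr in layer 1.

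The last comparison asked whether time and zone act on each other. Zone-dependent rhythm was called by edgeR for none of the 10 genes, while 2 (gclc and osgin1) had an unadjusted p under 0.05 and DESeq2 called none. Over all genes 3 of 8907 were called by edgeR, or 0.0337%, and 541 had an unadjusted p under 0.05. The fall of osgin1 between ZT0 and ZT12 was present in each of the 8 layers, from a log2 difference of means of -1.47 in layer 1 to -2.04 in layer 7. All ZT0 libraries lay above all ZT12 libraries in 5 of the 8 layers. For gss, ZT12 means were above ZT0 means in all 8 layers, by 0.57 to 1.5 on the same scale, and without overlap in 3 layers. Gss was thinly counted there, with 177 to 331 UMIs per layer over all libraries. How many of all genes lack overlap in such layers was not counted.

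**Figure D4:**
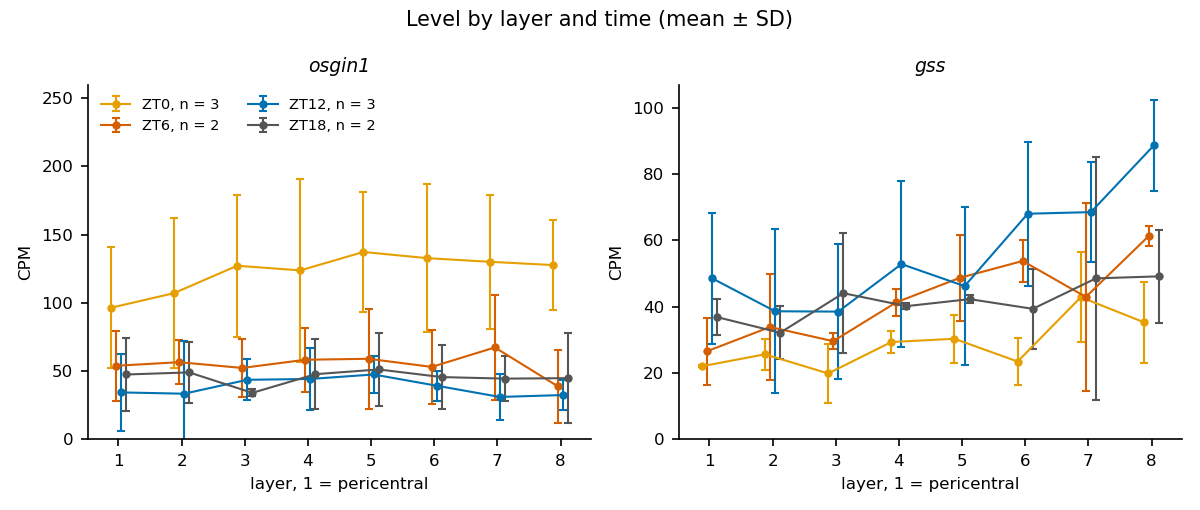
Mean level ± SD (y axis, CPM from 0) of osgin1 and gss by layer (x axis, layer 1 pericentral) at each of the 4 times (n = 3 for ZT0 and for ZT12, n = 2 for ZT6 and for ZT18). The ZT0 mean of osgin1 is above the other times in all 8 layers, while the ZT12 mean of gss reaches 88.7 CPM in layer 8.

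Other genes of the same system were read from lists by function. Zone calls in them are set against 24.6% of all genes called, and 1662 of 4341 at a mean of at least 20 CPM. At that level 11 of 14 other NRF2 targets, 4 of 7 NRF2 regulators and 9 of 17 other glutathione enzymes were called. So were 6 of 7 cysteine-supply, 4 of 8 NADPH-supply and 3 of 4 selenium-supply genes, and 1 of 3 for superoxide and peroxide removal. No list was tested as a set. Of 17 other NRF2 targets tested, 11 were called for zone by edgeR, all 11 higher in the pericentral zone, with a list median of -0.44 against -0.01 for all genes. The lowest adjusted p-values were those of Blvrb, a biliverdin reductase (-1.43, adjusted p = 2.5e-16), and the glutathione transferases Gstm1 (-1.01, 3.2e-15) and Gstm3 (-2.12, 3.2e-15). The 11 calls were the same in number with library size alone and without both ZT18 libraries, and 10 with DESeq2. Of 9 NRF2 regulators, 1 was periportal (Mafg, 0.36, adjusted p = 0.0026 by edgeR) and 3 pericentral. The latter included Nfe2l1 (-0.32, 0.0037), a relative of NRF2, and Nfe2l2 (-0.26, 0.025), which encodes NRF2 itself. Only 2 of the 9 were called without both ZT18 libraries.

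Other glutathione enzymes gave 10 calls of 23 tested, 7 pericentral and 3 periportal, led by Gstm2 (-3.30, adjusted p = 9.0e-20 by edgeR), Gstm6 (-1.77, 1.3e-18) and Gsta3 (-1.03, 2.3e-13). These transferases belong to families of near-identical genes, so single members are uncertain. Of 17 thioredoxin and peroxiredoxin genes, 4 were pericentral and 1 periportal, a share near the 24.6% of all genes called. The periportal one was the peroxiredoxin Prdx4 (0.63, adjusted p = 1.7e-07 by edgeR). With a mean of at least 20 CPM required, 5 of 15 were called. Prdx6 (-0.41, 1.3e-06) and Glrx (-0.49, 0.00011) were among the pericentral ones, and 9 of the 17 were called with library size alone.

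Cysteine supply split by step. Cbs (0.77, adjusted p = 4.4e-11 by edgeR), of the pathway that makes cysteine from methionine, was periportal with 3 other genes. Csad (-2.74, 9.3e-21) and Cdo1 (-0.73, 2.3e-11), which turn cysteine toward taurine, were pericentral. Of 8 NADPH-supply genes, 3 were pericentral, Me1 (-0.77, 5.6e-10), Idh1 (-0.45, 1.3e-06) and Idh2 (-0.38, 0.0024), and 1 periportal. Of 7 selenium-supply genes, 3 were periportal, led by Selenop, the plasma selenium carrier, entered as sepp1 (0.65, 7.3e-11), and Eefsec (0.65, 0.00011), and 1 was pericentral (Sepsecs, -0.35, 0.015). Of 3 genes for superoxide and peroxide removal, Sod1 was pericentral (-0.22, 0.0065).

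**Figure D5:**
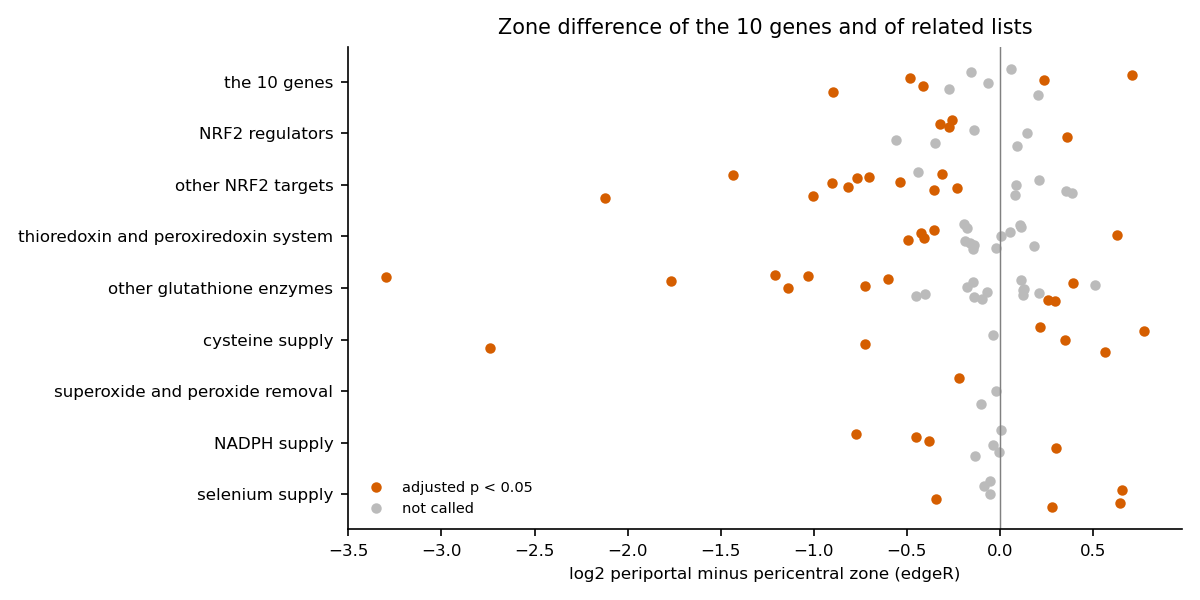
Zone difference by edgeR (x axis, log2 periportal minus pericentral) of each tested gene of the 10 and of 8 related lists (y axis). Orange points passed an adjusted p of 0.05 and grey points did not; all 11 orange points of the other NRF2 targets are below 0.

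Calls for time in these lists were read against 5.14% of all genes called for rhythm, 6.58% for any difference among times and 3.79% for ZT18 against ZT6. Abcc2, a canalicular exporter of glutathione conjugates, had a rhythm with amplitude 0.65 that was highest at ZT 8.61 (adjusted p = 0.029 by edgeR), as 1 of 17 other NRF2 targets, a share near the background. Maff (range of time means 2.65, 0.045) and Glrx (1.04, 0.041) were called for any difference among times, with Abcc2 (1.01, 0.047). Cdo1 was lower at ZT18 than at ZT6 by a log2 difference of -1.30 (adjusted p = 0.030).

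The genes most like osgin1 over the 10 libraries, among 4341 with a mean of at least 20 CPM, were pxmp4 (Pearson r = 0.85), slc17a8 (0.83), tgm2 (0.81), slc44a1 (0.81) and fdps (0.80). Over the 80 layer sums, centred within each library, those most like gss were lbp (0.68), spp1 (0.64), sdc1 (0.63), sepp1 (0.62) and cib3 (0.61). The points share libraries and depth, and these values are descriptions of likeness.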

How the data were processed

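Single-cell UMI counts of hepatocytes were deposited by the authors as 1 table per library, whole numbers per gene and cell with no normalization. Per the submitters' processing notes, Cell Ranger was used, and mm10 and hg19 are named without roles; which annotation and which cell filter were used is not given in the sources used here. No cells were removed and doublets were kept.

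Counts were summed per library, or per library and zone, and tested with edgeR 4.0.16 (R 4.3.3): TMM, a mean of at least 3 CPM, glmQLFit and glmQLFTest, Benjamini-Hochberg adjustment over all genes tested, threshold 0.05. Rhythm was a test of cosine and sine terms of 24 h. Zones were both outer parts, of 3 equal ones, of the cells ordered by 16 landmark genes, which were left out of calls. SE is the log2 difference over the square root of F. Zone differences per library used a pseudocount of 1 CPM, which understates changes of low genes. Self-tests on simulated counts were run first. Alternatives included DESeq2 1.42.0, other scaling and filters, and each library left out.

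The 10 genes and all lists were chosen with earlier results of these data known. All 10 genes are named; of other lists, called genes among the 3 lowest adjusted p-values per comparison; likeness names the 5 highest Pearson r. Letters paired ZT0 and ZT12: same-letter libraries deviated together, with r of 0.28, 0.51 and 0.63 over 4341 genes.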

Additional observations from a re-analysis of the deposited data

Results flagged for a closer look

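Zone differences with all libraries of one time on one side of 0 and all of another time on the other were seen for gclc and gclm, and the difference between the times was not tested for these pairs. For gclc, the lowest difference was 0.0040 at ZT0 and 0.13 at ZT18, while the highest at ZT6 was -0.10. For gclm, the lowest at ZT18 was 0.080, while the highest was -0.12 at ZT12 and -0.081 at ZT6. In the plain test of zone-dependent rhythm by edgeR neither passed (adjusted p = 0.68 for gclc and 0.89 for gclm).

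ZT12A stood far from the other 9 libraries in the zone difference of gpx4 (0.27) and of srxn1 (-1.07). It held 1454623 UMIs, the fewest of the series. Chance flags about 1 in 20 groups of values in this way, and 10 genes were looked at.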

How the results depend on the processing

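Of 637 values of single genes under alternatives, 591 kept their direction and their side of the threshold. Of the others, 23 lost the threshold, 17 gained it and 6 changed sign. Most of the 637 belonged to results not called in the main fit, which could not lose the threshold. Osgin1 lost it in 9 of 20 for rhythm, 7 of 20 for any difference among times and 3 of 20 for ZT12 against ZT0. For zone, nqo1 lost it in 3 of 21 and gpx1 in 1 of 22. Only values for ZT12 against ZT0 and for zone could change direction. Amplitudes and ranges of time means are never below 0, and peak times were not compared. The sign changes were gclc for zone with library size alone (-0.039) and without both ZT18 libraries (-0.0034), and 3 genes for ZT12 against ZT0 when 1 library was left out, with a range of -0.055 to 0.149 for gpx4 (negative without ZT0C or ZT12B), -0.0891 to 0.315 for txnrd1 (without ZT12A) and -0.0118 to 0.538 for srxn1 (without ZT12B), none of them called. The cause was not tested.

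Of the 10 genes, rhythm was called for 2 with DESeq2 (gss and osgin1) and for 0 with library size alone, a mean of at least 20 CPM or without the 5% of cells with the most UMIs, and for 0 to 1 when 1 library was left out. Any difference among times was called for 0 at a mean of at least 20 CPM and for 0 to 1 leaving out 1 library. ZT12 against ZT0 called 2 genes (gss and osgin1) with DESeq2, with library size alone, with no filter, and with the index number as a block without both ZT18 libraries, an alternative chosen after seeing the data, as was leaving out mitochondrial entries; leaving out 1 library gave 0 to 1. With the replicate block of letters it called 2 genes, and the block changed no other count for the 10 genes. Over all genes DESeq2 called 792 for rhythm, no filter 710, and leaving out both ZT18 libraries 231. The block raised rhythm calls from 458 to 749, any difference from 586 to 989, ZT12 against ZT0 from 306 to 504, ZT18 against ZT6 from 338 to 730 and zone-dependent rhythm from 3 to 30. Pairing by letter was checked for ZT0 and ZT12 alone. Both ZT6 libraries have the same index number whatever their letter, and so do both ZT18 libraries. Block counts that involve ZT6 or ZT18 therefore lack that basis. Library size alone moved the periportal share of zone calls from 48.3% to 27.8% and the ZT12-higher share from 50.7% to 66.7%. Without one library of ZT6 or ZT18, 50 to 80 genes were called for ZT18 against ZT6. NRF2 regulators had 2 zone calls with DESeq2 in place of 4, and selenium genes 2 in place of 4. Zone calls of the 10 genes numbered 5 to 7 under the alternatives run, with gss, gsr and txnrd1 among them each time. Nqo1 had the fewest UMIs of the 10 genes, 187 in all, and the part of depth in its changes was not tested.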
